A study of Homo sapiens with 12 samples.

Results

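The drug efflux ABC transporters are 8 membrane pumps, ABCB1, ABCC1, ABCC2, ABCC3, ABCC4, ABCC5, ABCC10 and ABCG2, taken by gene symbol from the 60662 genes of the expression table. All 8 were found. They were examined in RNA-seq of 12 cultures of NCI-H295R (H295R), an established human adrenocortical carcinoma line that makes cortisol. Confluent H295R cells spent 12 h in serum-free medium and were then exposed for 24 h to vehicle (VEH, 0.1% DMSO), to 30 µM CJ28, a benzimidazolylurea that lowers cortisol production, or to 30 µM metyrapone (MET), which blocks the last enzyme of cortisol synthesis, with 4 samples per group, which the submitters call biological replicates. All come from this 1 line, so the p-values describe the spread between its cultures. The comparisons ask how the 2 cortisol synthesis inhibitors differ in their effect on RNA levels. Values are TPM, a share of each library's transcripts corrected for gene length. Levels of different genes can thus be compared, but the number of reads behind a value is unknown. In RNA from whole cultures, fewer expressing cells and less RNA per cell cannot be told apart.

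ABC transporters use the energy of ATP to move substrates across a membrane. The members studied here carry drugs and their conjugates out of cells, and several also carry the body's own compounds, such as glutathione conjugates, cyclic nucleotides and steroid sulfates. ABCB1, also called P-glycoprotein or MDR1, is known for its broad range of fat-soluble drugs, and the adrenal cortex is among the normal tissues with much of it. Cortisol is itself one of its substrates.

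The cells carried the adrenocortical markers, though at unequal levels. The mean in VEH ran from 0.863 TPM for HSD3B2 and 1.05 TPM for MC2R to 92.6 ± 1.90 TPM (SD, n = 4 here and in what follows) for CYP11A1, the enzyme that starts steroid synthesis. Of the markers of the adrenal medulla, TH was listed at 0 in all 12 samples, DBH and PNMT had at most 0.04 TPM in any sample, and CHGA had 0.66 to 0.93 TPM in VEH, near the level of the lowest adrenocortical markers. COL1A1, a fibroblast marker, had 0.28 to 0.85 TPM in VEH. Nuclear protein-coding genes held 24.3% to 24.8% of TPM in VEH, 24.1% to 24.6% in MET and 21.3% to 21.4% in CJ28. A TPM value of any such gene is thus measured against a total with more non-coding RNA in CJ28. Where they change a result, 2 other scalings are given beside the deposited one, division by median-of-ratios factors (ratio-scaled) and TPM renormalised to the nuclear protein-coding total (coding-scaled). For CJ28 versus VEH the median log2 fold change (log2FC) of all 16815 genes tested was -0.13, the ratio-scaled median was 0.01 and the coding-scaled median, over 12506 genes, was 0.09.

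ABCB1 was the most abundant member in every sample and fell with CJ28. Its TPM was 49.27, 48.89, 51.30 and 54.48 in the VEH samples, 38.80, 37.10, 38.78 and 36.21 in the CJ28 samples, and 49.50, 48.41, 47.62 and 49.32 in the MET samples. Every CJ28 sample lay below every VEH and every MET sample, whereas the MET values lay inside or just below the VEH range. The mean fell by 26.0% from VEH to CJ28, from 51.0 ± 2.56 to 37.7 ± 1.29 TPM. On the scale of log2(TPM + 0.1) the log2FC was -0.43 (SE 0.039, 95% interval -0.52 to -0.35, limma adjusted p = 1.13e-06 by Benjamini-Hochberg over all 16815 genes). The exact permutation test of the mean TPM gave p = 0.0286, the smallest two-sided value that 4 against 4 samples allow. The ratio-scaled log2FC was -0.28 (limma adjusted p = 0.000118), and the coding-scaled one was -0.23 (limma adjusted p = 0.000108). The decrease thus passed the threshold on all 3 scales, but its size on the log2 scale differed by more than 1.5 times between them. Among all genes tested, 26.9% had a lower log2 fold change than ABCB1, so a decrease of this size was common in CJ28.

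RefSeq lists 2 promoter windows for ABCB1, and the table gives 1 value for the gene, so transcripts from the 2 starts cannot be told apart here. Both windows, 250 bases before to 50 bases after the start as RefSeq gives them on GRCh38.p14, are printed here with that of ABCC5, because these are the members whose TPM decrease with CJ28 passed the threshold. The windows lie at chr7:87713246-87713545 (ABCB1, upstream), chr7:87600835-87601134 (ABCB1, downstream) and chr3:184017835-184018134 (ABCC5), each on the minus strand and written 5′ to 3′. Capitals mark matches on either strand to 5 motifs. These were CCAAT, the motif read by the factor NF-Y, and GCGTG, the core of the site read by AHR with its partner ARNT. The others were GGGCGG, read by the factor SP1, the TATA box as the letters TATAAA, and the core of the site that NRF2 reads, TGACNNNGC.
ABCB1 upstream promoter: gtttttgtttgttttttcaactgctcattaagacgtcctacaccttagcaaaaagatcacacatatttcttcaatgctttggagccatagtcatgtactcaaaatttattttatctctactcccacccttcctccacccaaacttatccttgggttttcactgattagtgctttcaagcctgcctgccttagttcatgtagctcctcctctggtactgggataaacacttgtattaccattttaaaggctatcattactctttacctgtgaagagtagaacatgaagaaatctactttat
ABCB1 downstream promoter: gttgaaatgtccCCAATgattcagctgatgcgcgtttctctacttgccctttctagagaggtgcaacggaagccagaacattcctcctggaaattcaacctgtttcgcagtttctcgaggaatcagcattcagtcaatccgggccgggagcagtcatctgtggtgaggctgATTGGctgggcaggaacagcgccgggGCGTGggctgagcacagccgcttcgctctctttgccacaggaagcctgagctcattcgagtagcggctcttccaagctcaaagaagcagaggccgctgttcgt
ABCC5 promoter: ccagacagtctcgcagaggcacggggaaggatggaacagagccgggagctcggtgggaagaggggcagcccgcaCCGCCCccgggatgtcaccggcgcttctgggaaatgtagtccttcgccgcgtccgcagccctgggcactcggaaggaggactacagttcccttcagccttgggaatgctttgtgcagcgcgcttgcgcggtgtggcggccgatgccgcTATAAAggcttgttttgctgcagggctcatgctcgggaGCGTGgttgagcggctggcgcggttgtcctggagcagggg

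The upstream ABCB1 window had a GC content of 37.7% and none of these motifs, whereas the downstream one had a GC content of 55.3%, 2 CCAAT matches at positions 13 and 172 and 1 GCGTG match at position 198, counted from 1 at the 5′ end. The ABCC5 window had 1 match each to GGGCGG at position 75, to TATAAA at 223 and to GCGTG at 261. Such letters are frequent. Of all 35116 promoter windows, 34.6% held CCAAT, 36.5% GCGTG, 45.0% GGGCGG, 13.3% TGACNNNGC and 11.5% TATAAA. Promoter windows were found for 6 of the 8 members, ABCC1 and ABCC3 not being among them. The ABCC4 window and 1 of the 2 ABCC10 windows each held 3 GCGTG matches and 1 TGACNNNGC match, the latter also 1 TATAAA match. The other ABCC10 window held 5 GGGCGG matches, and that of ABCC2 held 1 TATAAA match. Of the 5 windows of ABCG2, 3 held GCGTG, each with 2 matches, and all 3 overlap one another. Of these 3, 2 share the same GCGTG matches and their 2 GGGCGG matches, and the third has GCGTG matches of its own. Of the remaining ABCG2 windows, 1 held a TGACNNNGC match and 1 held no match. A match is a description of the letters and not a binding site.

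ABCB1 (ENSG00000085563.15, chromosome 7, 87503017 to 87713323 on GRCh38, minus strand) has neighbours that bear on its value. Its paralogue ABCB4, a phospholipid pump of the bile canaliculus, lies next to it at 87401697 to 87480435, and RSEM could have divided reads between the 2 genes. From VEH to CJ28, ABCB4 went from 12.3 ± 0.789 to 10.7 ± 0.164 TPM, with a log2FC of -0.20 (limma adjusted p = 0.0138) that was -0.05 ratio-scaled and 0.01 coding-scaled, neither past the threshold. On the deposited scale the sum of both genes ranged from 60.61 to 67.45 TPM in VEH, from 58.34 to 62.00 in MET and from 46.81 to 49.69 in CJ28. The part of read division in the value of ABCB1 was not tested. RUNDC3B overlaps ABCB1 on the opposite strand. The libraries were stranded, but whether the counting used strand is not given in the sources used here. RUNDC3B held 12.4 TPM in VEH and 11.7 in CJ28 and did not pass the test (log2FC -0.07, limma adjusted p = 0.344).

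**Figure D1:**
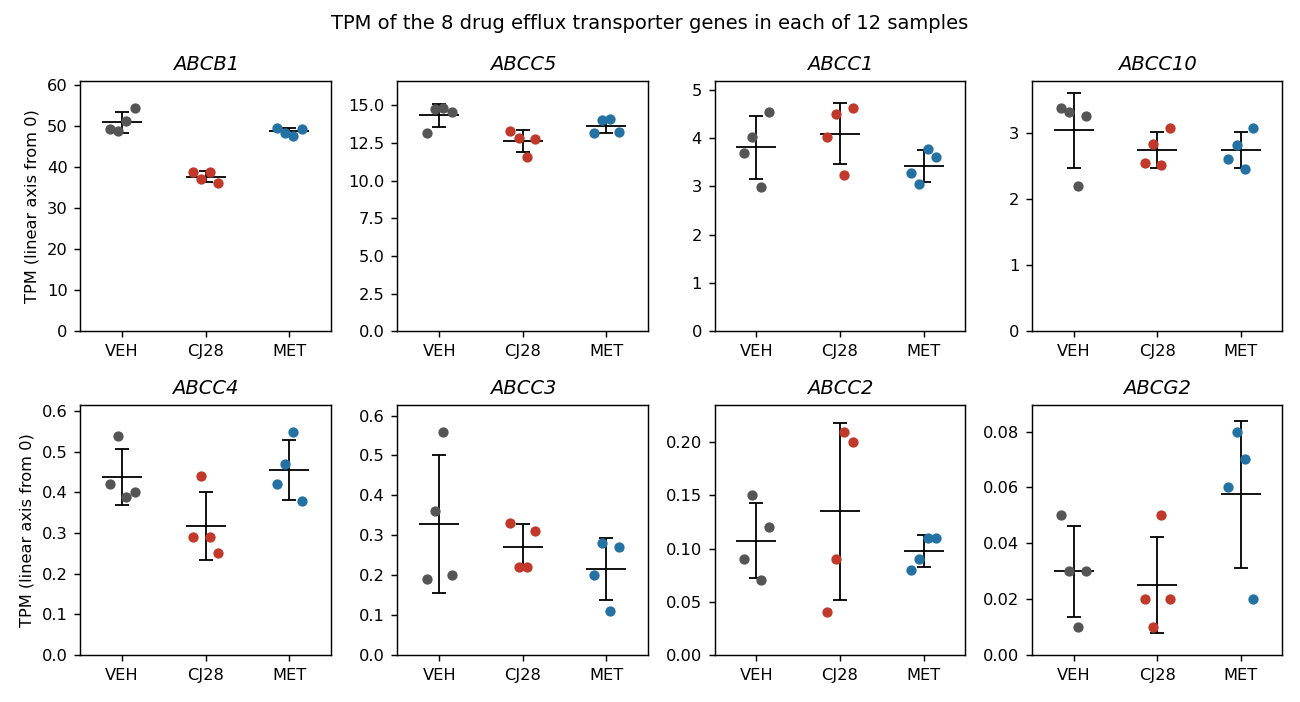
TPM of the 8 transporters (linear axes from 0) in the VEH, CJ28 and MET samples, 1 point a sample, with bars for mean ± SD over 4 samples. ABCB1 in CJ28 (36.21 to 38.80 TPM) lies below the other groups, whereas the groups overlap for the other 7 genes.

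ABCC5, ABCC1 and ABCC10 were the other members that could be tested, since 4 or more samples reached 0.5 TPM. ABCC5 (ENSG00000114770.17, chromosome 3, 183919934 to 184017939, minus strand), which exports cyclic nucleotides and glutamate conjugates, had 13.19, 14.72, 14.83 and 14.56 TPM in VEH, 13.30, 12.86, 11.58 and 12.73 in CJ28, and 13.17, 14.00, 14.06 and 13.22 in MET. The CJ28 samples were lower on average, but the highest of them exceeded the lowest VEH sample. Versus VEH its log2FC was -0.18 (SE 0.053, limma adjusted p = 0.0110), whereas the exact permutation test gave p = 0.0571. The ratio-scaled log2FC was -0.03 (limma adjusted p = 0.630), and the coding-scaled one was 0.02 (limma adjusted p = 0.731). The decrease of ABCC5 was therefore seen only on the scale of the deposited TPM, and its direction turned on the last of these scales.

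ABCC1, or MRP1 (ENSG00000103222.19, chromosome 16, 15949577 to 16143074, plus strand), exports glutathione and glucuronide conjugates, and its TPM was 3.69, 4.03, 2.99 and 4.54 in VEH, 4.02, 4.51, 3.23 and 4.63 in CJ28, and 3.27, 3.05, 3.78 and 3.61 in MET. The 3 groups overlapped. For CJ28 versus VEH, ABCC1 had a log2FC of 0.10 (95% interval -0.19 to 0.40, limma adjusted p = 0.539). Ratio-scaled it was 0.25 (limma adjusted p = 0.102) and coding-scaled 0.31 (limma adjusted p = 0.0523). Without the third VEH sample, which was the lowest of its group, it was -0.005 (limma adjusted p = 0.979) on the deposited scale.

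ABCC10, or MRP7 (ENSG00000124574.15, chromosome 6, 43427366 to 43450427, plus strand), a pump known to carry taxanes, held 3.38, 3.32, 2.19 and 3.26 TPM in VEH, 2.55, 2.83, 2.51 and 3.08 in CJ28, and 2.60, 2.82, 2.45 and 3.08 in MET. The third VEH sample was again the lowest of its group, here below all 11 others. With that sample the log2FC versus VEH was -0.13 (95% interval -0.41 to 0.16, limma adjusted p = 0.437). Without it the value was -0.27 (limma adjusted p = 0.0299). The direction turned under both other scalings, to 0.02 ratio-scaled and 0.07 coding-scaled, neither past the threshold. DLK2 overlaps the end of ABCC10 on the opposite strand, at 1.03 TPM in VEH and 0.538 in CJ28.

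Of the 4 members tested, 2 were lower in CJ28 than in VEH, ABCB1 and ABCC5, and 0 were higher. Among all 16815 genes, 37.1% were lower and 19.9% higher at an adjusted p under 0.05, 57% in all, so 2 of 4 is close to the background. Ratio-scaled, 1 of 4 was lower, ABCB1, beside 26.3% of all genes lower and 29.3% higher. Coding-scaled, it was also ABCB1 alone, beside 26.3% lower and 39.2% higher. ABCB1 was also the only one of the 8 whose CJ28 and VEH samples did not overlap, and 32.7% of all tested genes were lower in CJ28 without overlap. The 4 members had a median log2FC of -0.15, beside -0.13 for all genes.

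ABCC4, ABCC3, ABCC2 and ABCG2 lay under the level needed for the fit, and each is given by its values. ABCC4, or MRP4 (ENSG00000125257.16, chromosome 13, 95019835 to 95301475, minus strand), an exporter of cyclic AMP and steroid sulfates, had 0.42, 0.54, 0.39 and 0.40 TPM in VEH, 0.29, 0.44, 0.29 and 0.25 in CJ28, and 0.42, 0.47, 0.55 and 0.38 in MET. 3 of the 4 CJ28 samples lay below all VEH samples, and the exact permutation test gave p = 0.114 against VEH. ABCC3, or MRP3 (ENSG00000108846.16, chromosome 17, 50634777 to 50692253, plus strand), which exports bile acids and glucuronides, ranged from 0.19 to 0.56 TPM in VEH, from 0.22 to 0.33 in CJ28 and from 0.11 to 0.28 in MET. ABCC2, or MRP2 (ENSG00000023839.12, chromosome 10, 99782640 to 99852594, plus strand), the conjugate pump of the bile canaliculus, ranged from 0.07 to 0.15 TPM in VEH, from 0.04 to 0.21 in CJ28 and from 0.08 to 0.11 in MET. For both genes the 3 groups overlapped, and the exact permutation p for CJ28 versus VEH was 0.657 for ABCC3 and 0.600 for ABCC2.

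ABCG2, the breast cancer resistance protein (ENSG00000118777.12, chromosome 4, 88090150 to 88231628, minus strand), which carries sulfated steroids and many drugs, was the least abundant member by mean in each group. It was listed at 0.05, 0.03, 0.01 and 0.03 TPM in VEH, 0.02, 0.01, 0.05 and 0.02 in CJ28, and 0.06, 0.08, 0.07 and 0.02 in MET. The values are given to 2 decimals, so they differ by a few of the smallest steps the table can show. The exact permutation test gave p = 0.771 for CJ28 and p = 0.171 for MET, each against VEH. ABCG2 is known as a target of the aryl hydrocarbon receptor (AHR). Of 6 AHR target genes listed, 5 could be tested and 5 rose in CJ28, beside 19.9% of all genes tested. Of these, CYP1B1 reached 0.5 TPM only in CJ28 (0.55 to 0.68 TPM), so its entry into the test depended on its rise. ALDH3A1, too low for the fit, had a mean of 0.1525 TPM in VEH and 0.0725 in CJ28. CYP1A1, the classical AHR-induced cytochrome P450, had 0.553 TPM in VEH and 65.5 in CJ28. Every CJ28 value of ABCG2 was at or below 0.05 TPM, and any part of AHR in its level was not tested.

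The order of the 8 genes by mean level was the same in the 3 groups, from ABCB1 through ABCC5, ABCC1, ABCC10, ABCC4, ABCC3 and ABCC2 to ABCG2. The ranges of ABCC1 and ABCC10 overlapped in VEH and in MET, and those of ABCC4 and ABCC3 in VEH and in CJ28. ABCC2 overlapped with ABCC3 in MET, and with ABCG2 in CJ28 and MET. The neighbours in that order did not overlap in the other cases. In VEH, ABCB1 ranked 847th by mean TPM among 19957 protein-coding genes and first among the 48 genes of the ABC family, and it was first of the 48 in CJ28 and MET as well. ABCC5 stood at rank 6 of the family in VEH and at rank 5 in CJ28, and ABCC1 at rank 17 in both.

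Expressed as a share of the summed TPM of the 8 genes, a measure that no scaling of the samples can move, ABCB1 held 67.9% to 70.9% in VEH, 69.3% to 71.4% in MET and 63.1% to 68.2% in CJ28. The CJ28 range reached just above the lowest VEH sample. The share of ABCC1 was 5.21% ± 0.757 in VEH and 7.07% ± 1.08 in CJ28, and that of ABCC5 was 19.6% ± 0.982 and 21.8% ± 0.947. The summed TPM itself was 73.1 ± 3.15 in VEH, 69.3 ± 0.521 in MET and 57.9 ± 1.07 in CJ28. The ratio of ABCB1 to ABCC5 within a sample was 3.56 ± 0.209 in VEH, 3.58 ± 0.189 in MET and 3.00 ± 0.235 in CJ28, with 3 of the 4 CJ28 samples below all VEH samples and the third CJ28 sample, at 3.35, among them.

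MET left no member past the threshold. The log2FC of MET versus VEH was -0.06 for ABCB1, -0.07 for ABCC5, -0.14 for ABCC1 and -0.13 for ABCC10. The smallest limma adjusted p was 0.933, for ABCB1, and 0 of the 4 had an unadjusted p under 0.05, the smallest being 0.125 in limma. The median over all genes was -0.03, and 0.00595% of all genes, 1 of 16815, differed at an adjusted p under 0.05, while 874 had an unadjusted p under 0.05. The 95% interval for ABCB1 was -0.15 to 0.02 and for ABCC5 -0.19 to 0.04. The intervals were wider for ABCC1, from -0.43 to 0.16, and for ABCC10, from -0.42 to 0.16, so changes of these sizes with MET lie within the error.

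CJ28 and MET were compared directly at the equal dose of 30 µM and the equal time of 24 h. ABCB1 was 22.6% lower in CJ28 than in MET by mean TPM (log2FC -0.37, SE 0.039, limma adjusted p = 5.10e-06), and all 4 CJ28 samples lay below all 4 MET samples. It was also lower ratio-scaled (-0.25, limma adjusted p = 0.000335) and coding-scaled (-0.18, limma adjusted p = 0.000907). The log2FC of ABCC1 was 0.24 (95% interval -0.05 to 0.54, limma adjusted p = 0.150). It passed the threshold ratio-scaled, at 0.36 (limma adjusted p = 0.0257), and coding-scaled, at 0.44 (limma adjusted p = 0.00953). It also passed without the third CJ28 sample, at 0.35 (limma adjusted p = 0.0373). ABCC5 differed by -0.11 (95% interval -0.23 to 0.01, limma adjusted p = 0.0986), and by 0.01 and 0.08 under the other scalings, neither past the threshold. ABCC10 differed by 0.003 (95% interval -0.28 to 0.29).

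In this comparison 1 of 4 members was thus lower in CJ28 and 0 were higher, beside 34.6% and 20.9% of all genes, 55.5% in all. Of all genes, 31.3% were lower in CJ28 than in MET without overlap of the samples, as ABCB1 was. Ratio-scaled, 1 was lower and 1 higher, beside 26.1% and 28.7% of all genes, and coding-scaled the same counts stood beside 25.3% and 40.3%. The comparisons of CJ28 with VEH and with MET share the CJ28 samples and are not independent.

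**Figure D2:**
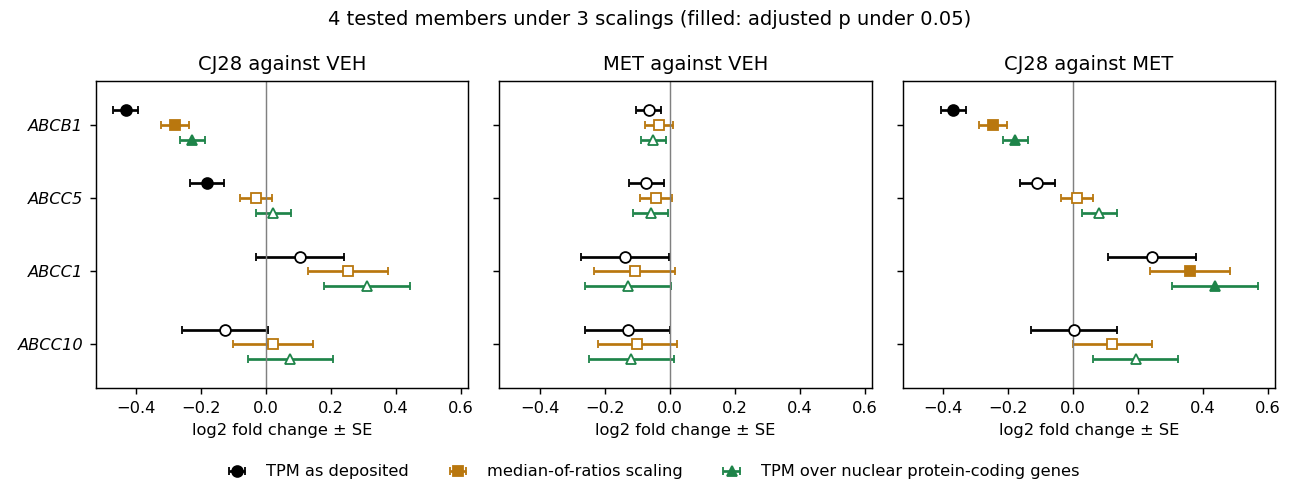
Log2 fold change ± SE of the 4 tested members in 3 comparisons and on 3 scales (deposited TPM, median-of-ratios scaling, nuclear protein-coding genes only), filled where the adjusted p was under 0.05. ABCB1 lies below 0 and is filled on all 3 scales against VEH (-0.43, -0.28 and -0.23) and against MET, and no point is filled for MET against VEH.

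Roles among the remaining 40 genes of the ABC family include lipid, peptide, haem, iron-sulfur and fatty acid transport and translation, among others. Of these 40 genes, 28 could be tested. With CJ28, 8 rose, 10 fell and 10 did not pass the test relative to VEH, with a median log2FC of 0.09 beside -0.13 for all genes. Among all genes 19.9% rose and 37.1% fell. Ratio-scaled, 13 rose and 7 fell, beside 29.3% and 26.3% of all genes. Coding-scaled, 14 rose and 7 fell, beside 39.2% and 26.3%. Among those that passed the test, the largest decreases by log2FC were those of ABCA1, the cholesterol and phospholipid exporter, from 1.18 ± 0.113 to 0.118 ± 0.0126 TPM (log2FC -2.55), and of ABCG1, its partner in sterol export, from 0.470 to 0.0950 TPM (-1.55). The peroxisomal fatty acid importer ABCD3 fell from 14.7 to 9.34 TPM (-0.64). CFTR, ABCB9 and ABCB10 were also among the family genes with a lower log2FC than ABCB1. ABCB11, the bile salt export pump, was too low for the fit, at 0.19 to 0.41 TPM in VEH and 0 to 0.04 in CJ28. The largest increases that passed the test were those of ABCB5, from 0.143 to 0.713 TPM (log2FC 1.76), of the lysosomal cobalamin transporter ABCD4 (0.52), of the peptide transporter TAP1 (0.45) and of ABCA5 (0.40). These 7 genes had a limma adjusted p of at most 0.000456 and kept their direction on all 3 scales. Over the alternatives run, the log2FC of ABCA1 ranged from -3.22 to -0.96 and that of ABCG1 from -2.24 to -0.42. That of ABCB5 ranged from 0.58 to 2.39, so the sizes for these low genes depend on the settings. ABCB5, a relative of ABCB1 that is also linked to drug resistance, reached at most 0.79 TPM in any sample. Only its CJ28 samples (0.66 to 0.79 TPM) met the level needed for the fit. VEH reached at most 0.18 TPM and MET at most 0.16, so the entry of ABCB5 into the test depended on its rise. None of the 28 passed the test for MET against VEH (limma), where 2 had an unadjusted p under 0.05 in limma, TAP2 (log2FC 0.36) and ABCF2 (0.17). Relative to MET, 9 rose and 10 fell in CJ28, beside 20.9% and 34.6% of all genes.

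**Figure D3:**
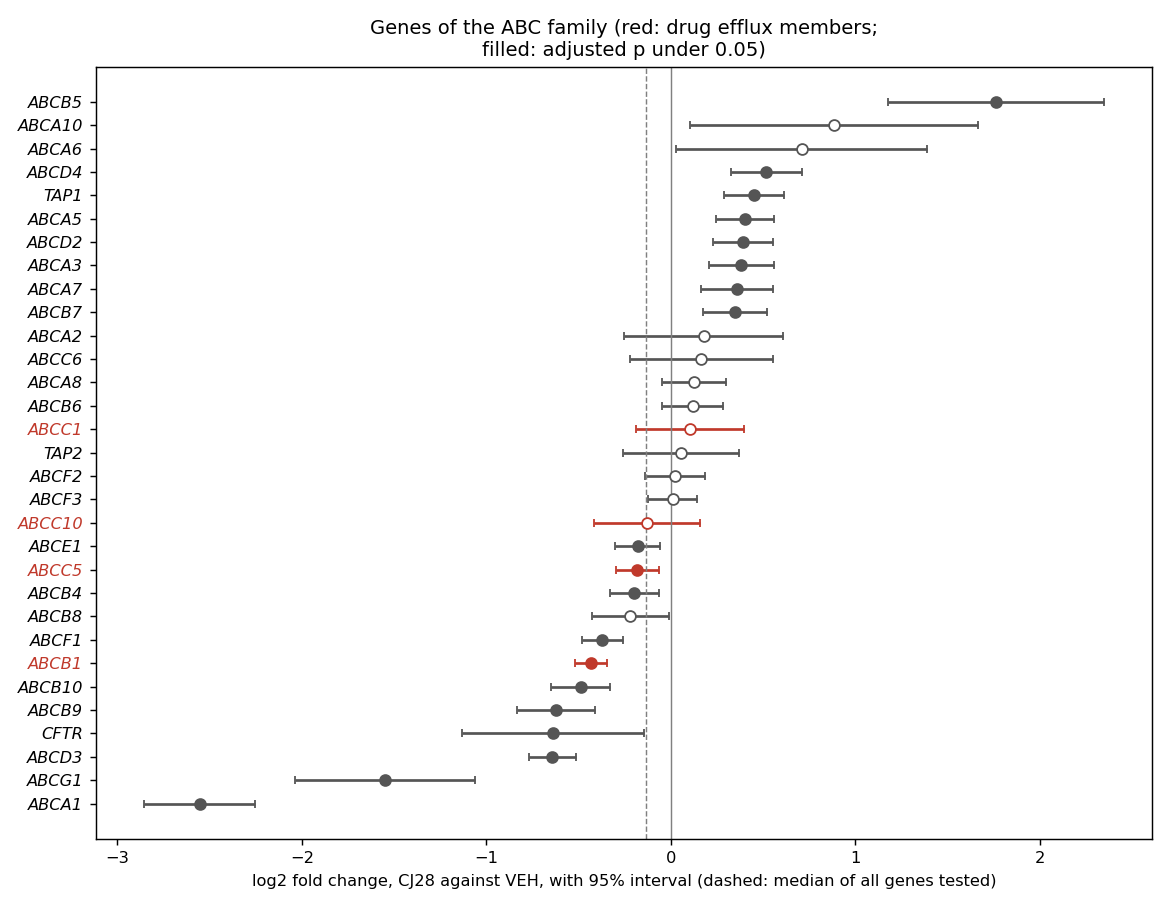
Log2 fold change with 95% interval, CJ28 versus VEH, of tested ABC family genes, the 4 drug efflux members in red, filled where the adjusted p was under 0.05. ABCB1 (-0.43) and ABCC5 (-0.18) lie among the decreases, among genes plotted from -2.55 (ABCA1) to 1.76 (ABCB5).

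Genes known to control the transporters or to act with them were read from gene lists. The counts stand beside the shares of all genes for CJ28 versus VEH, 19.9% higher and 37.1% lower. Those shares were 29.3% and 26.3% ratio-scaled, and 39.2% and 26.3% coding-scaled. Of 20 transcriptional regulators, 19 could be tested, and 5 rose and 9 fell in CJ28. Ratio-scaled, 6 rose and 6 fell, and coding-scaled 9 rose and 5 fell, so the balance of this list depends on the scale. AHR itself rose from 4.76 to 10.9 TPM, and its repressor AHRR from 1.73 to 8.40 TPM. NR1H4, the bile acid receptor, rose with a log2FC of 0.48. NFYA, the DNA-binding subunit of NF-Y, the factor that reads CCAAT, fell from 9.52 ± 0.910 to 4.28 ± 0.538 TPM (log2FC -1.14), and YBX1, a factor also named for such sequences, fell from 253 to 176 TPM (-0.52). NR1I3, the xenobiotic receptor CAR, fell from 0.963 to 0.513 TPM, and NR1I2, the xenobiotic receptor PXR known to induce ABCB1, had a mean of at most 0.0875 TPM in each group. Their part in the decrease of ABCB1 was not tested.

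ABCC1, ABCC2, ABCC3 and ABCC4 are often counted among the targets of the antioxidant factor NRF2. Of 9 other NRF2 targets 8 rose in CJ28 and 0 fell. NQO1 is counted both here and among the AHR targets above. HMOX1, haem oxygenase, rose from 5.11 to 25.5 TPM, SLC7A11, the cystine importer, from 9.52 to 28.1 TPM, and TXNRD1, thioredoxin reductase, from 75.6 to 124 TPM. Over the same samples ABCC1 had the log2FC of 0.10 given above, 0.25 ratio-scaled and 0.31 coding-scaled, none past the threshold. Against MET it passed on both of these other scales but not on the deposited one. ABCC2, ABCC3 and ABCC4 had at most 0.56 TPM in any sample. Any part of NRF2 in the levels of these 4 members was not tested. Genes that attach glutathione to drugs, which prepares substrates for ABCC pumps, were listed together with genes that make or recycle glutathione. More of this joint list fell than rose. The same held for all genes on the deposited scale (37.1% and 19.9%). It did not hold for them ratio-scaled (26.3% and 29.3%) or coding-scaled (26.3% and 39.2%). Of 20 tested, 15 fell and 2 rose, with a median log2FC of -0.54, and 13 fell and 4 rose on either other scale. The largest decreases were those of the glutathione transferases GSTA4 (-1.21), GSTA1 (-1.12, from 70.8 to 32.5 TPM) and GSTA2 (-1.11). GSTA1 and GSTA2 are near-identical copies whose reads RSEM may have divided. The 2 that rose were the subunits of the first enzyme of glutathione synthesis, GCLM (0.52) and GCLC (0.24), which are also among the 9 NRF2 targets. The glutathione synthetase gene GSS and the reductase gene GSR did not fall. Their means were 12.6 and 12.5 TPM in VEH and 13.1 and 13.4 TPM in CJ28. Of 6 tested genes of glucuronide and sulfate conjugation, 3 fell and 0 rose, against 2 and 0 ratio-scaled and 2 and 2 coding-scaled. SULT2A1, the steroid sulfotransferase of the adrenal, fell from 10.2 to 3.75 TPM.

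Among other drug carriers of the SLC families 10 of 20 were tested, and 4 fell and 1 rose, against 3 and 2 ratio-scaled and 2 and 3 coding-scaled. Beside these counts and those of the lists below, 37.1% of all genes fell and 19.9% rose on the deposited scale. The nucleoside carriers SLC29A1 (log2FC -0.93) and SLC29A2 (-0.88) had the largest decreases, and SLC22A18 (0.77) rose from 0.280 to 0.543 TPM. Of 9 proteins that anchor transporters at the membrane or were linked to drug resistance, 4 fell and 1 rose, against 4 and 2 ratio-scaled and 4 and 4 coding-scaled. The scaffold protein gene SLC9A3R1 fell from 2.35 to 1.15 TPM. The adrenocortical markers fell together, 7 of 7 on each scale, with a median log2FC of -1.39, and their part in the decrease of ABCB1 was not tested. CYP17A1 fell from 49.0 to 9.52 TPM, so it was near ABCB1 in level in VEH but not in CJ28. Of 11 markers of other cell types 1 could be tested, CHGA, at 0.808 TPM in VEH and 0.538 in CJ28 (log2FC -0.51, not past the threshold on the other 2 scales). For MET versus VEH, 0 of the 82 genes tested in these lists passed the test in limma, and 5 had an unadjusted p under 0.05.

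**Figure D4:**
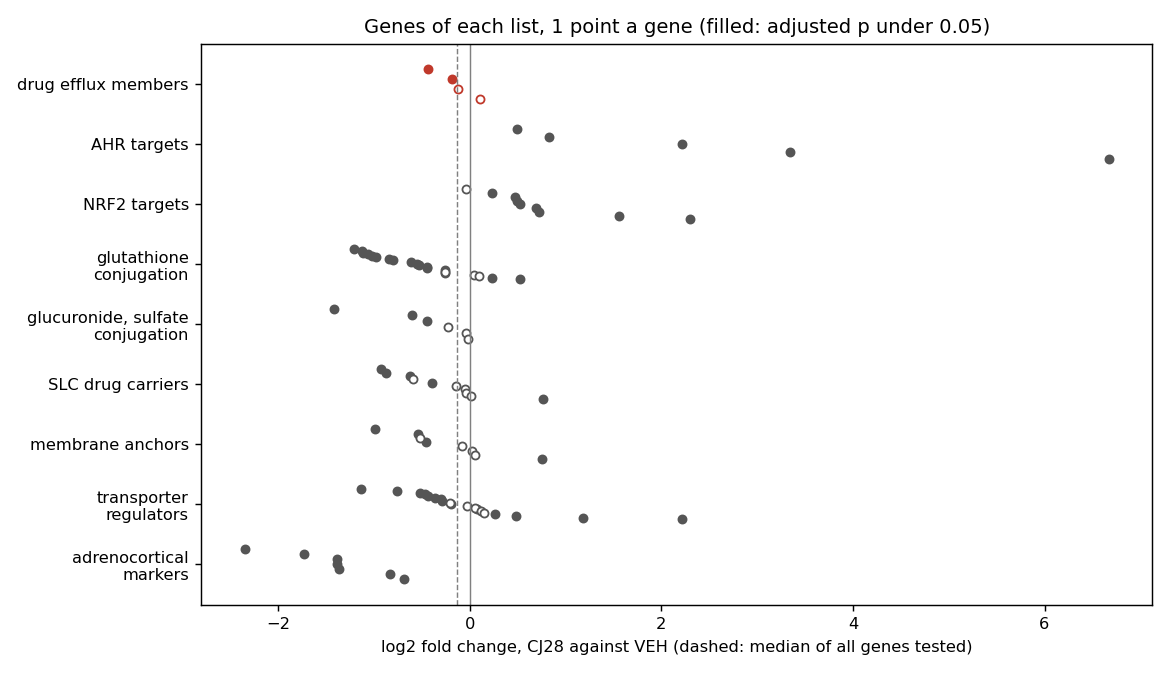
Log2 fold change, CJ28 versus VEH, of tested genes of 9 lists, 1 point a gene, filled where the adjusted p was under 0.05, with a dashed line at the median of all genes (-0.13). The 4 drug efflux members lie between -0.43 and 0.10, while the AHR target CYP1A1 reaches 6.68 and the adrenocortical marker CYP17A1 -2.35.

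The genes whose values moved most like ABCB1 over the 12 samples were SUPT16H, MFAP1 and TTI1. Likeness was the root mean square difference of log2(TPM + 0.1) after each gene's mean had been taken off, over the 13445 genes whose mean TPM reached 1, and it was 0.037, 0.038 and 0.040. SUPT16H, a histone chaperone subunit, had 42.1 TPM in VEH, 40.9 in MET and 31.4 in CJ28, a course close to that of ABCB1. The genes nearest to ABCC1 were RANGRF, VEGFB and KIAA1671, at differences of 0.091, 0.096 and 0.098, so no gene followed ABCC1 as closely as SUPT16H followed ABCB1. These differences include each gene's own spread between samples. For CJ28 versus VEH the SE of the log2FC was 0.136 for ABCC1 and 0.039 for ABCB1.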

How the data were processed

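Total RNA of H295R cells, depleted of ribosomal RNA, was sequenced from both ends as stranded libraries, 4 per group. The authors trimmed reads with Cutadapt (version 2.8), aligned them to GRCh38 with STAR (version 2.7.10b) and deposited TPM from RSEM (version 1.3.3) to 2 decimals. The annotation release is not given in the sources used here. The study's own tests used counts, which were not used here. TPM keeps no depth, so no counting interval was computed.

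Here limma (version 3.58.1) in R (version 4.3.3) modelled log2(TPM + 0.1) by group for 16815 genes, those reaching 0.5 TPM in 4 or more samples. All 12 samples entered 1 fit without covariates, and eBayes used a mean-variance trend. Tests were two-sided, adjusted by Benjamini-Hochberg over all genes, with a threshold of 0.05. The pseudocount understates changes of low genes. Exact permutation tests compared mean TPM. The procedure was tested on simulated data in which few genes changed and the library total did not shift. That setting is unlike CJ28 here and does not bear on the choice of scale. Group values and figures used Python (version 3.11.15) with pandas (version 2.3.3) and matplotlib (version 3.10.9). Replicates are called biological by the submitters.

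The members and gene lists were chosen with earlier results of these data known. Named beside the members were the 4 largest rises and falls among other ABC genes, up to 3 of each per list (a selection of them is printed), cell type markers and, for the most abundant member and those with the largest rise and fall, the 3 genes of most similar pattern. ABCB4, CFTR, ABCB9, ABCB10, ABCB11, TAP2, ABCF2, RUNDC3B, DLK2, NR1I2, CYP1B1, ALDH3A1, NQO1, GSS and GSR, and the within-sample ratios, were chosen after values were seen. Of the genes this rule names, 2 are not reported here but stay in the counts. The listed names NHERF1 and NHERF2 are carried by the table as SLC9A3R1 and SLC9A3R2. Promoters came from RefSeq (GRCh38.p14). Alternatives were pseudocounts of 1 and 0.01, no filter, a stricter filter (mean of 1 TPM), both other scalings, a fit to 2 groups at a time, blocking on the replicate number, eBayes without a trend, and leaving out each sample.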

Additional observations from a re-analysis of the deposited data

Results flagged for a closer look

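Single samples stood apart in 8 of the 141 groups of 4 values examined over the members and the genes chosen beside them, by the distance of 1 sample from its neighbour relative to the range. Chance alone gives about 1 in 20 such groups. Among the members, the third VEH sample had 2.19 TPM of ABCC10 against 3.26 to 3.38 in the other VEH samples, and the first VEH sample had 13.19 TPM of ABCC5 against 14.56 to 14.83. The log2FC of ABCC5 for CJ28 versus VEH stayed between -0.22 and -0.14 when any 1 sample was left out.

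Among the other genes, the second CJ28 sample had 9.19 TPM of ABCA5, under the other CJ28 samples. The second VEH sample was above the others in GSTA4 (24.87 TPM) and GSTA2 (1.59 TPM). The first VEH sample was above them in SLC29A2 (1.26 TPM). The third VEH sample was low in VEGFB (12.41 TPM), and the third CJ28 sample was low in KIAA1671 (1.89 TPM). What set these samples apart was not tested.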

How the results depend on the processing

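The decrease of ABCB1 versus VEH and versus MET in CJ28 passed the threshold under all alternatives run, with a log2FC of -0.45 to -0.23 and of -0.38 to -0.18. With median-of-ratios scaling and over nuclear protein-coding genes, the number of members called was 1 in place of 2 against VEH and 2 in place of 1 against MET. Without each sample in turn it was 2 to 3 against VEH and 1 to 2 against MET, the 3 arising without the third VEH sample and the 2 without the third CJ28 sample. For MET against VEH it was 0 throughout. Against VEH, the log2 fold change of ABCC5 reversed to 0.022 over nuclear protein-coding genes, that of ABCC10 to 0.021 with median-of-ratios scaling and to 0.074 over nuclear protein-coding genes, and that of ABCC1 to -0.0046 without the third VEH sample (0.21 at most when another sample was left out). Against MET, ABCC5 reversed to 0.011 and 0.080 under these scalings, and ABCC10 ranged from -0.053 to 0.059 over the fits without 1 sample. By construction the scalings act against the general decrease of TPM in CJ28, and neither left such a decrease. For CJ28 versus VEH the median log2FC was -0.13 as deposited, 0.01 ratio-scaled and 0.09 coding-scaled. Same-numbered samples did not deviate together (correlations of -0.124 to 0.039), so no pairing by number was seen in the values. Whether the cultures were matched by number is not given in the sources used here. A replicate block gave 2, 0 and 1 members called for CJ28 versus VEH, MET versus VEH and CJ28 versus MET, as without it. For all genes the block gave 9546 calls in place of 9577 for CJ28 against VEH. Among all genes, median-of-ratios scaling gave 4925 higher and 4430 lower calls in place of 3346 and 6231. The 4 members too low for the fit rest on at most 0.56 TPM, and for ABCG2 in MET against VEH the log2 difference was 0.04 with a pseudocount of 1 and 0.74 with 0.01.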
